A study of Mus musculus with 9 samples.

Results

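Oxidative phosphorylation in the cells around capillaries of the growing and the mature femur was examined through the genes of its 5 complexes. The genes were all protein-coding genes whose GRCm38 symbol marks them as a subunit or a named factor of complexes I to V: the Nduf families, Sdha to Sdhd, Uqcr, Cox4 to Cox8, Atp5, and the Nd, Co, Atp and Cytb genes of the mitochondrial genome. The rule matched 107 annotated genes, and 106 of them were listed in the count tables among 39179 genes. Of these, 93 are nuclear and 13 mitochondrial. The gene left out is a second, read-through entry under the symbol Atp5o. Members that carry other symbols, such as Usmg5, lie outside the rule.

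Capillaries with their surrounding cells were cut by laser microdissection (LMD) from the ossification front (OF), the zone below the growth plate where new bone is laid down. The femurs came from Tg(TIE2GFP)287Sato/J mice, whose origin the labels give as C57BL/6, a transgenic line without further treatment whose GFP is driven by the Tie2 promoter, which is active in endothelial cells and also in some blood-forming cells. Juvenile mice were 4 weeks old (n = 5 libraries) and adult mice 12 weeks old (n = 4 libraries). The pieces hold several cell types: markers of endothelial cells summed to 442 to 714 counts per 1000000 counts of the library (CPM) in juvenile and 557 to 670.1 in adult libraries, and those of osteoblasts, the bone-forming cells, to 87948 to 105321 and 38509.6 to 57447 CPM.

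Library totals lay between 4856833 and 8077362 counts. Juvenile libraries 4 and 5 were the 2 libraries with more counts on Y-linked genes than on Xist, and all adult libraries were of the other kind, so results are also given for the 7 libraries in which Xist outnumbered the Y-linked genes. The study analysed both sexes together. Both kinds of library are unevenly split between the ages, so a difference between sexes cannot be fully told apart from age. Markers of several types of blood cells were higher in the adult libraries. Erythroid markers summed to 392 to 2470.2 CPM in juvenile and 4767 to 40723 in adult libraries, with 7 of 7 tested genes called higher in adult mice. Neutrophil markers summed to 5.61 to 58.3 and 93.8 to 4607 CPM, also with 7 of 7 called. B cell markers overlapped between the ages, with 34 to 61 CPM in juvenile and 22.2 to 146.7 in adult libraries. Their 4 tested genes all had log2 fold changes above 0, and none was called. Fewer cells of a type and less RNA per cell cannot be told apart in such pieces.

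Oxidative phosphorylation is the set of reactions in the inner mitochondrial membrane by which cells turn the energy of food into ATP. Complexes I and II take electrons from NADH and succinate, complex III passes them to cytochrome c, complex IV hands them to oxygen, and complex V (ATP synthase) uses the proton gradient built by complexes I, III and IV to make ATP. Most subunits are encoded in the nucleus and imported, whereas a small core is encoded by mitochondrial DNA, so each complex except complex II is built from both genomes. In bone, osteoclasts are known for their many mitochondria, and osteoblasts are known to draw much of their ATP from glycolysis.

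The nuclear genes took a larger share of the counts in every adult library than in any juvenile library. As a percent of all counts, their summed share was 1.78, 1.63, 1.73, 1.32 and 1.3 in juvenile libraries 1 to 5 and 2.41, 2.12, 2.78 and 2.19 in adult libraries 1 to 4. Juvenile libraries averaged 1.55% ± 0.227 (SD, n = 5) and adult libraries 2.37% ± 0.295 (SD, n = 4), a ratio of 1.53. The 2 lowest values belonged to juvenile libraries 4 and 5, and without these 2 libraries the juvenile mean was 1.71% ± 0.0745 (SD, n = 3) and the ages still did not overlap. These are sums over chosen genes, so no test is attached to them. The widest 95% exact binomial interval of a share was 0.0234 percentage points for the nuclear and 0.0332 for the mitochondrial genes, and it covers counting error only.

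The mitochondrially encoded genes were also higher on average in adult mice, with overlap between the ages. As a percent of all counts, their summed share was 2.29, 2.28, 2.83, 2.99 and 3.23 in juvenile libraries 1 to 5 and 3.75, 4.36, 3.8 and 3.12 in adult libraries 1 to 4. Juvenile libraries averaged 2.72% ± 0.425 (SD, n = 5) and adult libraries 3.76% ± 0.507 (SD, n = 4), a ratio of 1.38. Juvenile library 5 lay above adult library 4. In the 7 libraries the juvenile mean was 2.47% ± 0.315 (SD, n = 3) and the ages did not overlap. Corrected for gene length as above, the ratio was 1.17 over all libraries and 1.31 in the 7, with overlap in both.

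The balance between the genomes differed more among the juvenile libraries than between the ages. The ratio of mitochondrial to nuclear counts was 1.29, 1.4, 1.64, 2.26 and 2.48 in juvenile libraries 1 to 5 and 1.56, 2.05, 1.37 and 1.43 in adult libraries 1 to 4. On the log2 scale the juvenile ratios averaged 0.81 ± 0.42 (SD, n = 5) and the adult ratios 0.66 ± 0.26 (SD, n = 4), a difference of -0.15 of adult minus juvenile that lies within both spreads. In the 7 libraries the difference turned to 0.14. Juvenile libraries 4 and 5 had the highest ratios of all 9 and combined the lowest nuclear shares with the highest mitochondrial shares among the juvenile libraries.

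**Figure D1:**
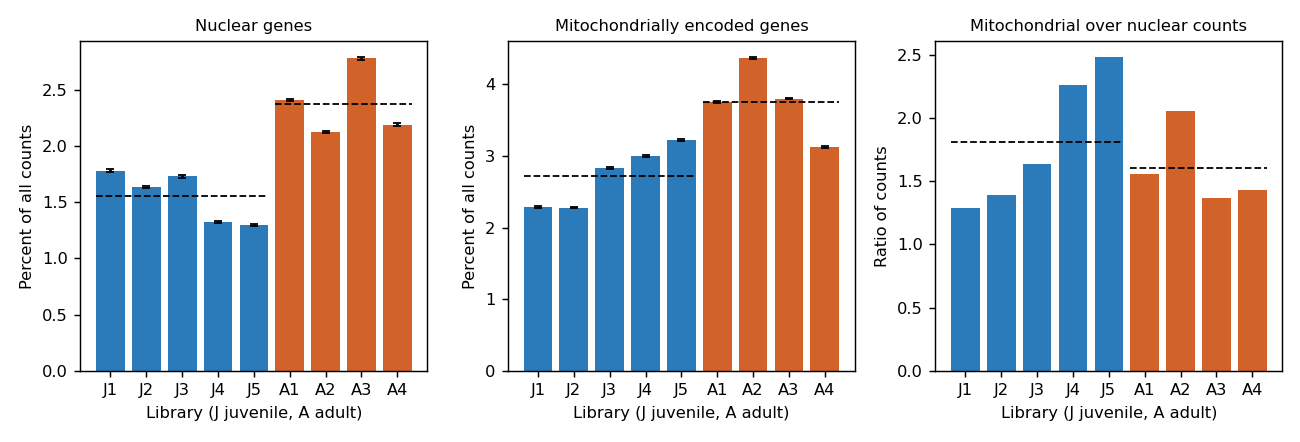
Percent of all counts on the 93 nuclear genes (left) and the 13 mitochondrially encoded genes (middle), and the ratio of their counts (right), in each library. Blue bars are juvenile (J) and orange bars adult (A) libraries, dashed lines are the means of the ages, and error bars are 95% exact binomial intervals of the shares; nuclear shares do not overlap between the ages, whereas mitochondrial shares and the ratios do.

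Each nuclear complex took a larger mean share in adult mice. The adult over juvenile ratio of the mean shares was 1.56 for nuclear subunits of complex I, 1.41 for complex II, 1.47 for complex III, 1.68 for complex IV and 1.43 for complex V. For each of the 5 complexes the lowest adult library lay above the highest juvenile library. In the 7 libraries the ratios were 1.41, 1.25, 1.34, 1.5 and 1.31 in the same order, and again no complex overlapped between the ages. All these ratios are of raw shares, not corrected for gene length.

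Gene by gene, 7 of the 89 nuclear genes that passed the filter on low counts were called differentially expressed, all higher in adult mice (edgeR quasi-likelihood test, adjusted p under 0.05). This is 7.87% of them, against 1.89% of all 13418 genes tested that were called higher in adult mice and 3.88% called in either direction. Short genes were called more often, and the shares called by gene length are given below. The shares of all genes that follow here were not split by length. A further 42 nuclear genes had an unadjusted p under 0.05, which makes 49 (55.1%) with the called ones, all higher in adult mice, against 8.76% of all genes. In 26 nuclear genes (29.2%) all adult values lay above all juvenile values, against 4.08% of all genes, and in none did all juvenile values lie above, against 5.07% of all genes. The log2 fold change of adult over juvenile was above 0 in 81 of the 89 (50.5% of all genes), with a median of 0.47, whereas the median over all genes was 0.0066.

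DESeq2 in place of edgeR called 25 nuclear genes, all higher in adult mice and the 7 among them, with 7.15% of all genes called. Without a filter on low counts 4 of 92 nuclear genes were called (2.27% of all genes), and with at least 10 counts in every library 15 of 84 (6.57%).

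The calls depended on the libraries used. No nuclear gene was called by the same test in the 7 libraries, where 73 of all genes (0.526%) were called and 16 of the 89 had an unadjusted p under 0.05. The share of all genes at an unadjusted p was not counted in that fit. The median log2 fold change there was 0.33, with 72 of 89 above 0. In these 7 libraries the log2 fold changes of the 7 called genes were 0.80 for Cox6c, 0.78 for Ndufb3, 0.76 for Ndufa4, 0.66 for Atp5mpl, 0.60 for Ndufa3, 0.56 for Atp5k and 0.48 for Cox8a, with adjusted p between 0.174 and 0.28 by edgeR.

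Leaving out juvenile library 4 or juvenile library 5 alone left 0 of the 89 called, with 36 and 34 at an unadjusted p under 0.05, while 2.07% and 1.97% of all genes were called. The share of all genes at an unadjusted p was not counted in these fits either. Without juvenile library 1, 2 or 3, the number called was 3, 5 and 2 (2.83%, 2.53% and 2.21% of all genes). Without adult library 1, 2, 3 or 4 it was 5, 10, 1 and 5 (3.8%, 4.63%, 2.83% and 2.69% of all genes). Every nuclear gene called in any of these fits was higher in adult mice.

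**Figure D2:**
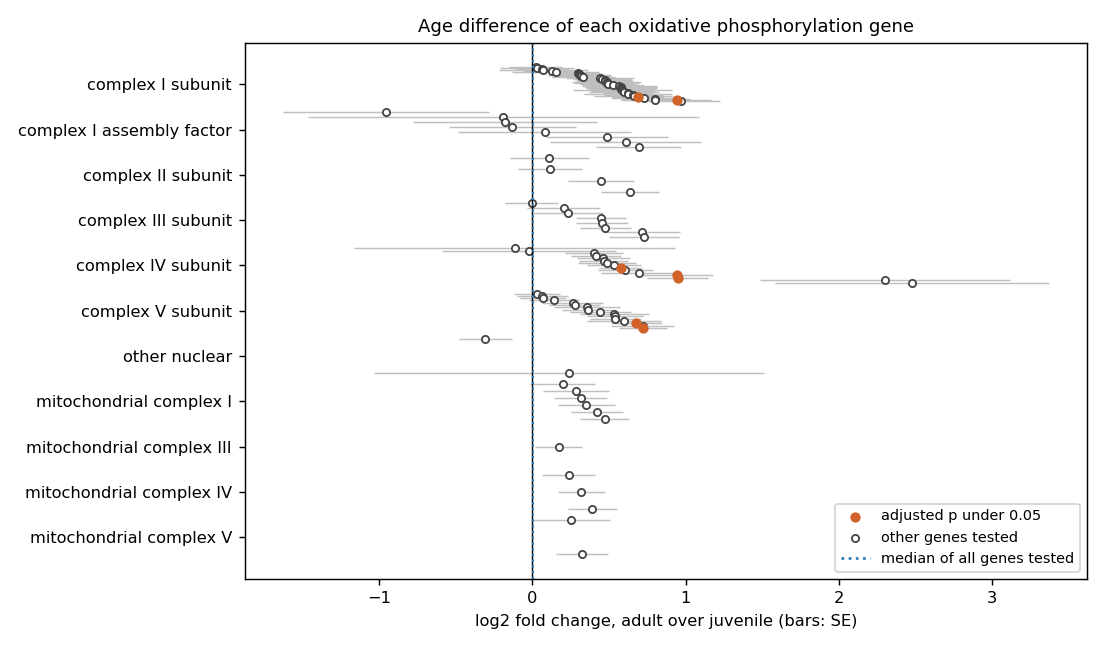
Log2 fold change of adult over juvenile (x axis, grey bars SE) of the 89 nuclear and 12 mitochondrially encoded genes tested, grouped by complex (y axis). Orange points are the 7 genes with an adjusted p under 0.05, and 93 of the 101 points lie to the right of 0; the dotted line is the median of all 13418 genes tested.

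Complex IV, cytochrome c oxidase, is where oxygen is reduced to water, and it held 3 of the 7 called genes. Cox6c (GRCm38 chr15:35925886-35938246, minus strand), a small nuclear subunit of the enzyme, had normalised counts (scaled by TMM to the mean library size) of 2435, 2457, 2790.3, 1917 and 1973 in juvenile libraries 1 to 5 and 4012, 4059.6, 6378 and 3422 in adult libraries 1 to 4. The ages did not overlap, with means of 2314 ± 366 (SD, n = 5) and 4468 ± 1306 (SD, n = 4), and the log2 fold change of adult over juvenile was 0.95 ± 0.20 (SE, edgeR adjusted p = 0.0195). Its exons overlap those of Vps13b on the other strand, and its 2 near-identical copies in the tables held 2 counts in all.

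Cox8a (GRCm38 chr19:7215153-7217616, minus strand) encodes another small subunit of complex IV and had the highest level per length of all nuclear genes examined, 2247 transcripts per 1000000 transcripts, a level corrected for gene length (TPM). Its normalised counts were 3218, 2970, 3040.1, 2526 and 2630 in juvenile libraries 1 to 5 and 4598, 3759, 4406 and 4386 in adult libraries 1 to 4. Adult values all lay above juvenile values, and the log2 fold change of adult over juvenile was 0.58 ± 0.14 (SE, edgeR adjusted p = 0.0409).

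Ndufa4 (GRCm38 chr6:11900292-11907497, minus strand) is named for complex I but is now assigned to complex IV. Its normalised counts were 1543, 2179.8, 1915, 1377 and 1269 in juvenile libraries 1 to 5 and 2736, 2759.8, 4884 and 2387 in adult libraries 1 to 4. Adult library 3 stood far above the other adult libraries, yet the lowest adult value still exceeded the highest juvenile one. For this gene the log2 fold change of adult over juvenile was 0.95 ± 0.23 (SE, edgeR adjusted p = 0.0424).

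Of the 15 complex IV genes tested, 12 (80%) had an unadjusted p under 0.05, all higher in adult mice, against 8.76% of all genes. The median log2 fold change of the 15 was 0.53. Cox5a, which with Cox4i1 flanks the core of the enzyme, had a value of 0.70 (adjusted p = 0.148) and Cox6b1, which faces the intermembrane space, 0.60 (adjusted p = 0.0828). The remaining genes of the kind expressed in all tissues, Cox4i1, Cox5b, Cox6a1, Cox7a2, Cox7b and Cox7c, lay between 0.40 and 0.53, and none of them was called.

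Complex IV also has subunit isoforms that are restricted to some tissues or conditions, and these were scarce on average over all 9 libraries. Per length, Cox4i1 stood at 984 TPM and its hypoxia-induced counterpart Cox4i2 at 29.4 TPM. Cox7a2 stood at 865 TPM, against 26.9 for Cox7a1, the form of heart and skeletal muscle. Cox6a1 stood at 2092 TPM, against 2.95 for the muscle form Cox6a2.

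The same held for the other pairs. Cox6b1 stood at 1279 TPM and Cox6b2, known from testis, at 30.3. Cox8a exceeded the muscle form Cox8b, which stood at 2.52 TPM. Ndufa4 stood at 669 TPM, against 12.5 for Ndufa4l2, which is induced in hypoxia.

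Values of the restricted forms spread widely. Cox7a1 had normalised counts of 5.69, 18.1, 12, 16.5 and 7.98 in juvenile libraries 1 to 5 and 88.5, 50.3, 129 and 3.93 in adult libraries 1 to 4, so that 3 adult libraries were above and 1 below all juvenile libraries, and the log2 fold change of adult over juvenile was 2.48 ± 0.89 (SE, edgeR adjusted p = 0.155). Cox6b2 had 27.3, 71.4, 20, 10.6 and 25.3 in juvenile libraries 1 to 5 and 26.1, 165, 35.7 and 388 in adult libraries 1 to 4, with overlap between the ages and a log2 fold change of 2.30 ± 0.82 (SE, adjusted p = 0.148). Both hypoxia-linked forms had values near 0 with large errors, -0.022 ± 0.57 (SE, adjusted p = 0.993) for Cox4i2 and -0.12 ± 1.05 (SE, adjusted p = 0.979) for Ndufa4l2.

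The direction of both hypoxia-linked genes turned when juvenile library 2 was left out, to 0.29 and 0.39. Cox6a2 had 33 and 29 counts in adult libraries 1 and 3 and none in the other 7 libraries, and was not tested. Cox8b had at most 10 counts in a library, Cox7b2 at most 21, and Cox8c, a testis form, had none in any library, where 3 counts, the floor taken for a count of 0, correspond to at most 0.618 CPM. The markers of skeletal muscle summed to 0 to 6.35 CPM in juvenile and 0 to 20.4 in adult libraries.

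**Figure D3:**
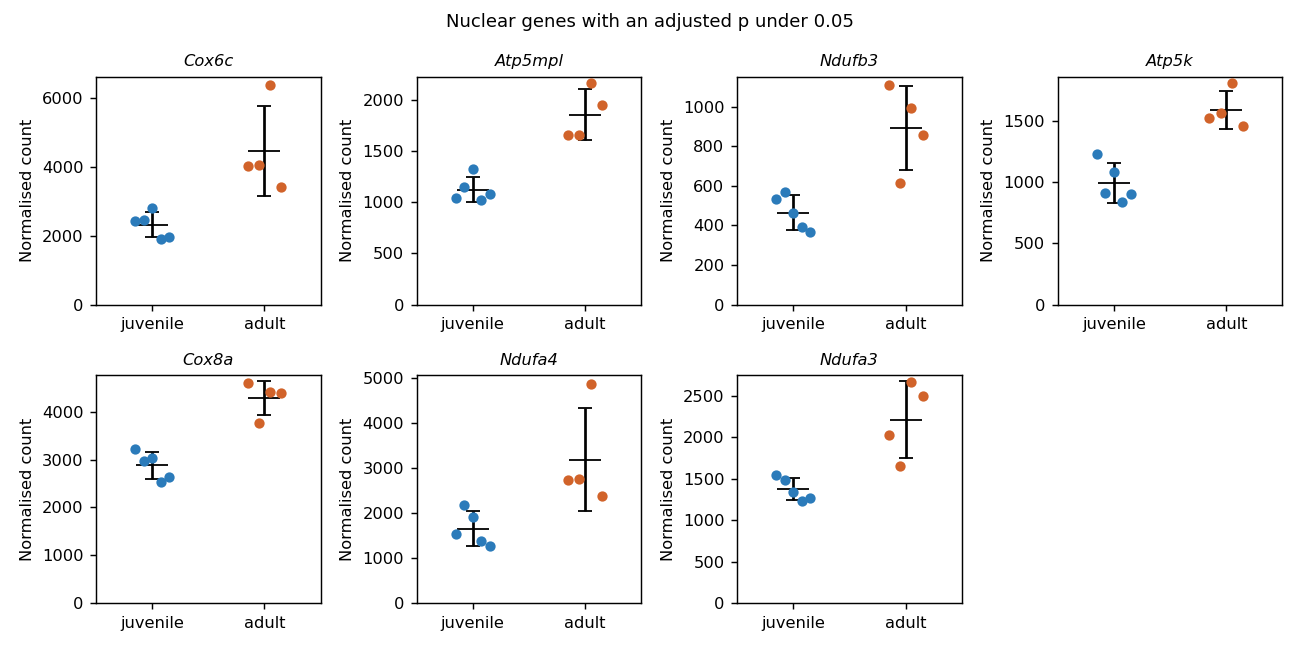
Normalised counts (y axis, from 0) of the 7 called nuclear genes in each juvenile (blue, n = 5) and adult (orange, n = 4) library; black bars are the mean and SD. In each of the 7 genes the lowest adult value lies above the highest juvenile value.

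Complex I, the NADH dehydrogenase at the entry of the chain, has the most nuclear subunits, and all 36 of them had a log2 fold change above 0. The median was 0.51, the largest value 0.97, and 22 of 36 (61.1%) had an unadjusted p under 0.05, against 8.76% of all genes in this direction. Of the 36, 2 were called. Ndufb3 (GRCm38 chr1:58586384-58595964, plus strand), an accessory subunit of the membrane arm, had normalised counts of 532, 569.6, 461, 391 and 366 in juvenile libraries 1 to 5 and 1112, 615, 992 and 855 in adult libraries 1 to 4. The ages did not overlap, and the log2 fold change of adult over juvenile was 0.95 ± 0.22 (SE, edgeR adjusted p = 0.0325).

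Ndufa3 (GRCm38 chr7:3617373-3620327, plus strand), also an accessory subunit of the membrane arm, had normalised counts of 1541, 1481, 1342, 1229 and 1272 in juvenile libraries 1 to 5 and 2026, 1651, 2667 and 2506 in adult libraries 1 to 4. The ages again did not overlap, although adult library 2 was close to juvenile library 1, and the log2 fold change of adult over juvenile was 0.69 ± 0.17 (SE, edgeR adjusted p = 0.0436). Its exons overlap those of Tfpt on the other strand, and reads of the pair cannot be told apart without strand.

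The largest value in complex I belonged to Ndufa5, an accessory subunit, with 0.97 ± 0.26 (SE, adjusted p = 0.0538), just above the threshold. Ndufa1, the complex I gene with the highest level per length (2109 TPM), had 0.13 ± 0.19 (SE, adjusted p = 0.823), and without adult library 3 its direction turned (-0.028). Among the 7 nuclear core subunits, which carry the redox centres, the median was 0.47 and the largest value 0.63 (Ndufv2), and over the 29 accessory subunits the median was 0.58. None of the core subunits was called.

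The 8 complex I assembly factors, which help to build the enzyme but are not part of it, were mixed in sign. Their log2 fold changes had a median of -0.026, with 4 above and 4 below 0, and none was called. Ndufaf8 had the highest level per length, 143 TPM, and the largest value, 0.69 ± 0.28 (SE, adjusted p = 0.204). Ndufaf7, a methyltransferase, had the lowest value, -0.96 ± 0.67 (SE, adjusted p = 0.538). They were also scarcer than the subunits, with a median of 19.1 TPM against 235.8 TPM for the subunits. The difference between both groups of genes was not tested.

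Complex V, ATP synthase, held the other 2 called genes, both small proteins of its membrane part. Atp5mpl (GRCm38 chr12:111961375-111966977, minus strand) had normalised counts of 1045, 1147, 1325, 1025 and 1079 in juvenile libraries 1 to 5 and 1655, 1658, 2166 and 1949 in adult libraries 1 to 4. The ages did not overlap, and the log2 fold change of adult over juvenile was 0.72 ± 0.16 (SE, edgeR adjusted p = 0.0236).

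Atp5k (GRCm38 chr5:108433244-108434448, minus strand) encodes subunit e, which takes part in pairing the enzyme into dimers. Its normalised counts were 1231, 911, 1081, 835 and 905 in juvenile libraries 1 to 5 and 1525, 1561, 1807 and 1460.2 in adult libraries 1 to 4. All adult values lay above all juvenile values, and the log2 fold change of adult over juvenile was 0.68 ± 0.17 (SE, edgeR adjusted p = 0.0406). It was the complex V gene with the highest level per length (808 TPM).

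All 16 complex V genes had values above 0, from 0.028 to 0.72. The 5 genes of the F1 part, the catalytic head with the central stalk (Atp5a1, Atp5b, Atp5c1, Atp5d and Atp5e), lay between 0.028 and 0.27. None of them had an unadjusted p under 0.05. The 11 genes of the membrane part and the peripheral stalk (among them the c-ring genes Atp5g1, Atp5g2 and Atp5g3) lay between 0.063 and 0.72 with a median of 0.54, and 8 had an unadjusted p under 0.05. Over all genes tested, 8.76% did so in this direction. This grouping was made after the values were seen, so no test was run on it.

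Complexes II and III held no called gene. Sdha, the flavoprotein that oxidises succinate in complex II, had normalised counts of 622, 676, 879, 727 and 772 in juvenile libraries 1 to 5 and 1191, 802, 1272 and 1302 in adult libraries 1 to 4. Adult library 2 lay below the highest juvenile library, and the log2 fold change of adult over juvenile was 0.64 ± 0.19 (SE, edgeR adjusted p = 0.0834). Sdhb, Sdhc and Sdhd had values of 0.11, 0.11 and 0.45, and Sdhd, a membrane anchor, was the most abundant per length (376 TPM).

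In complex III, which passes electrons from ubiquinol to cytochrome c, 5 of 8 genes (62.5%) had an unadjusted p under 0.05. All 5 were higher in adult mice, against 8.76% of all genes. Uqcrb had the smallest p of the complex, with normalised counts of 1677, 1538, 1831, 1064 and 974 in juvenile libraries 1 to 5 and 2332, 2226, 3153 and 1676 in adult libraries 1 to 4. Adult library 4 fell just short of the highest juvenile value, and the log2 fold change of adult over juvenile was 0.73 ± 0.23 (SE, edgeR adjusted p = 0.104). Uqcr11, the most abundant per length (2058 TPM), had 0.48 ± 0.17 (SE, adjusted p = 0.141), the iron-sulfur protein Uqcrfs1 0.72, and both large core proteins, Uqcrc1 and Uqcrc2, 0.23 and 0.20. Uqcrq had a value that did not differ from 0 beyond its error, -0.0048 ± 0.17 (SE, adjusted p = 0.995), and its sign changed with the scaling. The 2 remaining nuclear genes, Atp5s and Cox7a2l, a factor that joins complexes III and IV, had 0.24 and -0.31 (adjusted p = 0.962 and 0.396).

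None of the 12 mitochondrially encoded genes tested was called, and all 12 had a log2 fold change above 0, between 0.17 and 0.47, with a median of 0.32. Of these, 3 (25%) had an unadjusted p under 0.05, against 8.76% of all genes that did so in this direction. That share of all genes was not split by gene length. DESeq2 called 1 gene, mt-Nd2, and limma voom none, with 3.35% of all genes called. In the 7 libraries the median was 0.49 and 9 of 12 had an unadjusted p under 0.05, again with none called. The share of all genes at an unadjusted p was not counted there. The mitochondrial genes are cut from long shared precursors, so their values are not independent of each other. Their median is set beside that of other short genes below.

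The 3 genes were mt-Nd2, mt-Nd6 and mt-Co2. mt-Nd2 (chrM:3914-4951), a core subunit of complex I, had normalised counts of 5128, 5153, 6761, 6803 and 6746 in juvenile libraries 1 to 5 and 8428, 9919, 8912 and 6648 in adult libraries 1 to 4, and adult library 4 lay within the juvenile range. Its log2 fold change was 0.47 ± 0.16 (SE, adjusted p = 0.137).

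mt-Nd6 (chrM:13552-14070) is the only mitochondrially encoded protein gene on the other strand, and in it the ages did not overlap. This was the case in 1 of the 12 genes (8.33%), against 4.08% of all genes in this direction. The range of mt-Nd6 overlaps that of mt-Nd5 on the opposite strand (chrM:11742-13565) only in its bases up to 13565. Reads from this stretch cannot be assigned to a gene without strand, nor can the strand of other reads over mt-Nd6 be told. mt-Nd6 had 2166, 2516, 3488, 3240 and 3343 in juvenile libraries 1 to 5 and 3853, 4459, 3716 and 3752 in adult libraries 1 to 4, with a log2 fold change of 0.42 ± 0.17 (SE, adjusted p = 0.213). mt-Co2 (chrM:7013-7696), the copper-binding subunit of complex IV that takes electrons from cytochrome c, had 14835, 15578, 17567, 20260.1 and 22043 in juvenile libraries 1 to 5 and 23826, 27226, 24150.5 and 19529.7 in adult libraries 1 to 4. Adult library 4 lay among the juvenile values, and its log2 fold change was 0.39 ± 0.16 (SE, adjusted p = 0.211).

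Of the remaining complex I genes, mt-Nd1, mt-Nd3, mt-Nd4 and mt-Nd5 had 0.32, 0.28, 0.35 and 0.20. mt-Cytb, the cytochrome b of complex III, had 0.17 ± 0.15 (SE, adjusted p = 0.656), the smallest of the 12. The catalytic subunit of complex IV, mt-Co1, had 0.32 and mt-Co3 0.24. The complex V genes mt-Atp6 and mt-Atp8 had 0.32 and 0.25, and without adult library 2 mt-Atp8 turned to -0.019. In 10 of the 12 genes adult library 4 was the lowest adult library, and in all 12 adult library 2 was the highest.

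Per length most mitochondrially encoded genes stood above all nuclear ones, with a median of 5651 TPM over the 13. The highest were mt-Co3 at 20808 TPM and mt-Atp6 at 16164 TPM, whereas the median over the 75 nuclear subunits that are not restricted isoforms was 348.9 TPM. Summed over the genes, mitochondrial TPM were 2.68 ± 0.77 times nuclear TPM in juvenile mice (SD, n = 5) and 2.36 ± 0.523 times in adult mice (SD, n = 4). Among the mitochondrial genes tested, mt-Nd5 had the lowest level, 947 TPM, which is below that of Cox8a.

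Lower still was mt-Nd4l, with 17 counts over all libraries against 126741 for mt-Nd4, and it was not tested. Both genes lie on the same transcript, and the end of mt-Nd4l overlaps the start of mt-Nd4 by 7 bases. A near-identical copy of mt-Nd4l in the nuclear genome held 4 counts. mt-Atp8, with 12712 counts against 256501 for mt-Atp6, overlaps it by 43 of its 204 bases. What these overlaps and the copy do to the counts was not tested. The last 30 bases of both genes are shown because these bases lie at the junction of both genes; capitals mark the bases that also belong to the next gene (GRCm38):
mt-Nd4l, chrM:10144-10173, plus strand: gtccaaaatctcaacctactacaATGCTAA
mt-Atp8, chrM:7940-7969, plus strand: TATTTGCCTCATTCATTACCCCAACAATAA

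Within an age, genes of the same genome often lay on the same side of their mean, and the 2 genomes differed in which libraries were high. In juvenile libraries 4 and 5, 76 and 77 of the 89 nuclear genes lay below their juvenile mean (on the log2 scale), while all 12 mitochondrial genes lay above theirs. In juvenile libraries 1 and 2 it was the opposite, with 76 and 74 nuclear genes above and all 12 mitochondrial genes below. In juvenile library 3, 72 nuclear and 8 mitochondrial genes lay above.

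Among the adult libraries, library 3 had 72 of 89 nuclear and 8 of 12 mitochondrial genes above the adult mean, and library 2 had all 12 mitochondrial genes above it but 60 nuclear genes below. Adult library 4 lay low in both, with 63 nuclear and all 12 mitochondrial genes below. Adult library 1 was split, with 47 nuclear genes above and 42 below, and 7 mitochondrial genes above and 5 below. These counts describe the libraries, since all genes of a library share its RNA, amplification and depth.

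**Figure D4:**
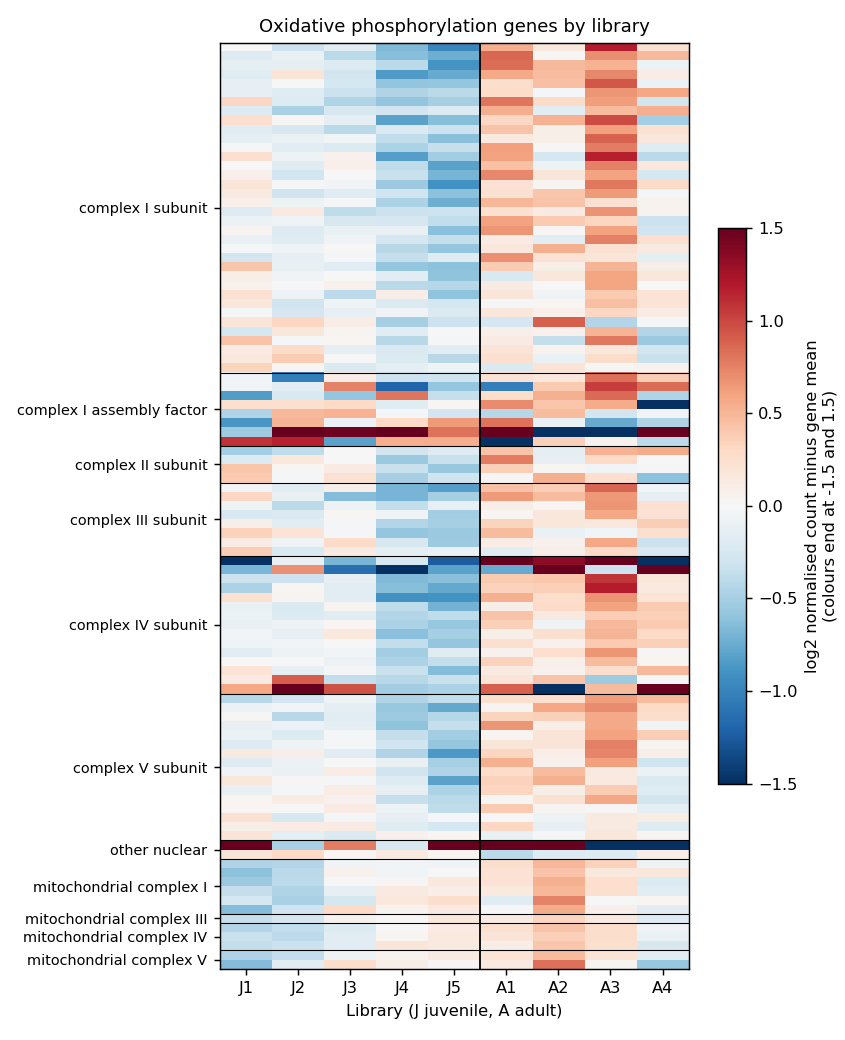
Log2 normalised count of each of the 101 genes tested (rows, by complex and then by fold change) minus its mean over all libraries, in juvenile (J) and adult (A) libraries (columns). Red is above and blue below the gene's mean; most nuclear rows are blue in J4 and J5 and red in A3, while the mitochondrial rows are bluest in J1 and J2 and reddest in A2.

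Markers of osteoclasts, the bone-resorbing cells, were set beside the nuclear genes. Their summed level was 15902, 19775, 14761, 11686 and 12559.5 CPM in juvenile libraries 1 to 5 and 24195, 23892, 26460.3 and 18156 CPM in adult libraries 1 to 4. Juvenile libraries 4 and 5 were the lowest and adult library 3 the highest in both measures. This was not particular to osteoclast markers. Mitochondrial ribosomal protein genes summed to 3485 and 3200 CPM in juvenile libraries 4 and 5, the lowest, and to 5964 in adult library 3, the highest. Assembly genes of the respiratory complexes did likewise (1051, 953 and 1865 CPM). In the tricarboxylic acid cycle genes the same juvenile libraries were lowest, but adult library 1 was highest. Of the 6 osteoclast genes, 2 were called higher in adult mice and 3 of 6 had a log2 fold change above 0: the protease gene Ctsk had 0.15 ± 0.26 (SE, adjusted p = 0.846) and Acp5 0.88 ± 0.14 (SE, adjusted p = 0.00626). The ages overlapped in the summed osteoclast level, whereas the summed osteoblast, erythroid, neutrophil, macrophage and megakaryocyte markers did not overlap between the ages, with osteoblasts lower and the others higher in adult mice. Among the osteoblast genes 3 of 7 were called lower and 2 higher, and among the macrophage genes 1 of 6 was called higher. Megakaryocyte markers summed to 2.57 to 14 CPM in juvenile and 64.4 to 4294 CPM in adult libraries, with Pf4 called higher. The fat cell gene Fabp4 and the cartilage gene Col2a1 were also called higher in adult mice, while the summed levels of their lists overlapped between the ages. The part of these cell types in the results was not tested.

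Short genes in general had higher fold changes, and the nuclear oxidative phosphorylation genes are short, with a median exonic length of 1675 bases against 4556 for the protein-coding genes tested. Over the 254 tested protein-coding genes with up to 1 kb of exons the median log2 fold change was 0.39, and it was 0.21 for the 1218 genes of 1 to 2 kb, 0.036 for the 3601 of 2 to 4 kb and -0.036 for the 4717 of 4 to 8 kb. In the same order 11%, 5.42%, 2.11% and 1.14% of the genes in these classes were called higher in adult mice. The nuclear oxidative phosphorylation genes had medians of 0.57 (20 genes), 0.48 (36), 0.32 (22) and 0.45 (10) in the same classes, each above that of all genes of the class. The mitochondrially encoded genes have a median length of 784 bases. Their median log2 fold change of 0.32 lay below the 0.39 of the class up to 1 kb. With offsets for length and GC content in the fit, an alternative added after the data were seen, 2 of the 7 genes (Cox6c and Cox8a) stayed called, with 3.73% of all genes called. The median over the nuclear genes was then 0.40 and that over the mitochondrial genes 0.11, where the median of all genes was 0.053.

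**Figure D5:**
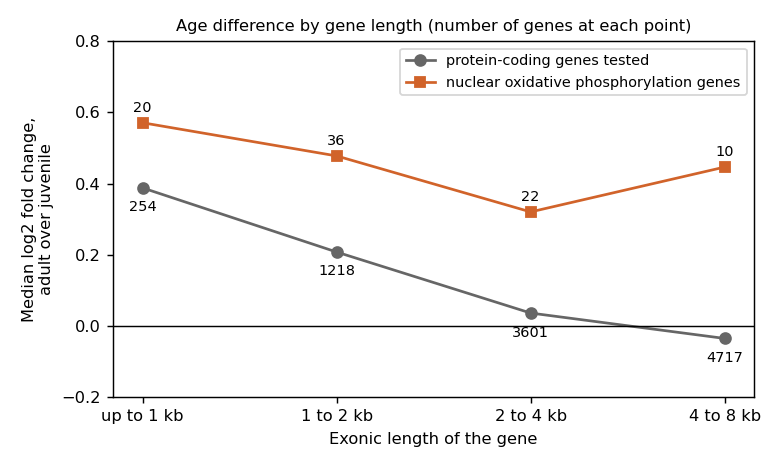
Median log2 fold change of adult over juvenile (y axis) by exonic length of the gene (x axis), for all tested protein-coding genes (grey circles) and for the nuclear oxidative phosphorylation genes (orange squares), with the number of genes at each point; 1 further nuclear gene is longer than 8 kb. The grey medians decline from 0.39 to -0.036, and the orange ones stay between 0.32 and 0.57.

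Promoters of nuclear respiratory genes are known for sites of the factors NRF1, GABP, YY1 and the estrogen-related receptors. RefSeq promoters (250 bases before to 50 after a start, build GRCm38.p6) matched 76 of the 93 nuclear genes by symbol or synonym. The NRF1 motif, GCGCA and GCGC with any base between them, was found on either strand in 19 of them (25%), against 7.17% of the 17492 protein-coding genes with a promoter. The motif CCGGAAG of GABP and other ETS factors was found in 18 (23.7% against 12.9%), AAGATGGCG of YY1 in 8 (10.5% against 2.14%), and TCAAGGTCA of estrogen-related receptors in 2 (2.63% against 0.377%). At least 1 motif was found in 38 of the 76, and matches of different motifs did not overlap in any of them. These shares describe letters and not binding.

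The age difference was also set beside the motifs. The median log2 fold change was 0.54 with and 0.48 without the NRF1 motif, 0.50 and 0.48 for the ETS motif, and 0.51 and 0.48 for YY1. Among the called genes, Atp5k held the NRF1 and ETS motifs and Cox8a the ETS motif. The 30 bases around the match are shown for the genes of smallest p with the NRF1, ETS and YY1 motifs, because they carry the feature that the symbol rule did not use; the strand is that of the gene, and capitals mark the motif or its reverse complement:
NRF1, Atp5k, chr5:108434430-108434459, minus strand: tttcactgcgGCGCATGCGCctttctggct
NRF1, Ndufa5, chr6:24527697-24527726, minus strand: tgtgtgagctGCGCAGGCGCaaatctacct
NRF1, Sdha, chr13:74350319-74350348, minus strand: cgtttacaggGCGCAGGCGCaccaccactc
ETS, Atp5k, chr5:108434370-108434399, minus strand: gcctcagttgagCTTCCGGcgcgaaggtca
ETS, Cox8a, chr19:7217567-7217596, minus strand: tcagcgccggaaCTTCCGGctggttcggcc
YY1, Ndufs4, chr13:114388045-114388074, minus strand: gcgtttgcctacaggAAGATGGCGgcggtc

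Regulators were looked at too, where 3.88% of all genes tested were called in either direction. Of 8 regulators of mitochondrial biogenesis, 7 were tested and 1 was called, Pprc1, a relative of the coactivator PGC-1, which was lower in adult mice with a log2 fold change of -1.39 ± 0.35 (SE, adjusted p = 0.0473). Tfam, which packs and transcribes mitochondrial DNA, had 0.34 ± 0.43 (SE, adjusted p = 0.78), and Esrra -0.50 ± 0.32 (SE, adjusted p = 0.473). The 21 genes for transcription and replication of the mitochondrial genome included no called gene (median 0.29), and the 2 mitochondrial rRNAs had -0.42 ± 0.44 (SE, adjusted p = 0.72) for mt-Rnr1 and 0.18 ± 0.35 (SE, adjusted p = 0.873) for mt-Rnr2.

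Genes that work next to the complexes included 3 called ones. Of 9 carriers of electrons and nucleotides, all 9 had values above 0, and the 3 were higher in adult mice. Over all genes tested, 1.89% were called in this direction. Atpif1, the inhibitor of ATP synthase, had 1.22 ± 0.25 (SE, adjusted p = 0.0179), the uncoupling protein gene Ucp2 1.32 ± 0.27 (SE, adjusted p = 0.0182), and Cycs, which encodes cytochrome c, 0.91 ± 0.23 (SE, adjusted p = 0.0473). Juvenile libraries averaged 776 ± 201 (SD, n = 5) normalised counts of Cycs, and adult libraries 1453 ± 394 (SD, n = 4).

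The other lists had medians between those of all genes and of the subunits. The 35 assembly genes of the respiratory complexes had a median of 0.33 and the 13 genes of the tricarboxylic acid cycle one of 0.27, with none called in either. Of 76 mitochondrial ribosomal protein genes tested, 58 lay above 0 (median 0.30), Mrpl18 and Mrpl36 were called higher and Mrpl45 lower in adult mice. Over all genes tested, 3.88% were called in either direction.

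Counts of some genes are uncertain because of close relatives in the genome. A copy of at least 95% identity over at least 75 coding bases was found for 24 nuclear and 9 mitochondrial genes. In most, copies listed in the tables took few counts, but those of Ndufs5 took 51.5% of the sum of gene and copy, those of Atp5g2 25.7% and that of Ndufa12 19.6%. Exons of 37 of the genes, 27 of them nuclear, overlap another gene, and reads cannot be assigned by strand with this kit.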

How the data were processed

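RNA of LMD pieces from 9 femur samples was amplified from its poly(A) tails (SMART-Seq v4, Nextera XT; a kit that keeps no strand) and sequenced. The authors mapped reads to mm10 with TopHat2 and Bowtie2, featureCounts is named in their processing notes, and they deposited whole-number counts per Ensembl gene, not normalized. Versions and the strand setting are not given in the sources used here. Symbols, positions and exonic lengths came from GENCODE for GRCm38, in which 96.2% of the identifiers have an entry.

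Ages were compared with edgeR 4.0.16 (R 4.3.3): filterByExpr, TMM, quasi-likelihood test without covariates, Benjamini-Hochberg adjustment over all 13418 genes, called at an adjusted p under 0.05. Log2 fold changes are adult over juvenile. TPM were computed from the counts and the length of all annotated exons, which understates genes with long rare isoforms. Motifs were searched as letters. Copies were sought with BLAST 2.17.0. On simulated counts for this comparison (13418 genes) 6 of 102 genes changed by 1 on the log2 scale and 49 of 98 changed by 2 were recovered. Only 200 genes, drawn at random among those above a minimum mean count, were changed there, so these rates are not those of the genes examined here. The 36 library pairs showed no copied library.

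Replicate numbers do not pair the libraries. The labels give replicate numbers only, and the study's text speaks of different mice. The genes named are the 13 mitochondrial ones, all called nuclear ones, the most abundant and the smallest p in each direction per group, and the isoform pairs; other values were chosen for the description. The members and lists were chosen with earlier results of these data known. Alternatives were other scalings, DESeq2 1.42.0, limma 3.58.1 voom, other filters, a replicate block, the 7 libraries, and leaving out each library. Protein sequences were not analysed here.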

Additional observations from a re-analysis of the deposited data

Results flagged for a closer look

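In 82 groups of 4 or 5 libraries (each named gene, both shares and the ratio in each age), 3 values stood apart from their group by Dixon's criterion, where chance gives about 4.1. For Ndufa4, adult library 3 had 4884 normalised counts and the other adult libraries 2387 to 2759.8. This library was the highest of the adults in 53 of the 89 nuclear genes tested. For Cox6b2, juvenile library 2 had 71.4 normalised counts and the other juvenile libraries 10.6 to 27.3. For Cox8b, adult library 2 had 10.5 normalised counts and the other adult libraries 0.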

How the results depend on the processing

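All medians and shares kept their direction under every alternative, and every called gene in any alternative was higher in adult mice. The number of called nuclear genes, 7, was 25 with DESeq2 (7.15% of 20852 genes called), 4 without a filter (2.27%), 15 with at least 10 counts in every library (6.57%), 2 with offsets for length and GC content (3.73%) and 0 in the 7 libraries (0.526%). Leaving out each library gave 0 to 10 (1.97% to 4.63%). All 7 called genes were among the 25 and the 15. DESeq2 called 1 mitochondrial gene, and leaving out each library gave 0. The nuclear share differed by 0.549 percentage points (0.822 with all genes) when genes with a near-identical copy were left out. The log2 ratio turned from -0.15 to 0.14 in the 7 libraries, and leaving out each library gave -0.27 to -0.023. The cause was not tested, apart from the fewer libraries or genes that an alternative uses.

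The replicate number shared by libraries does not pair them (correlations of same-numbered deviations -0.0318 to 0.0303). With the replicate block, 0 nuclear and 0 mitochondrial genes were called, with 28 and 3 at an unadjusted p under 0.05, and all genes fell from 520 to 89 calls. The share of all genes at an unadjusted p was not counted with the block. Not every library correlated best with its own number.

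Of 697 values of named genes under alternatives, 21 changed sign, all of genes that were not called. With the offsets mt-Cytb was -0.078 and Ndufa1 -0.0048. Uqcrq was 0.017 with DESeq2's size factors, 0.012 with scaling on nuclear genes, 0.019 with DESeq2, 0.017 with voom, 0.013 without a filter and 0.00896 with the stricter filter, and Cox4i2 was 0.00062 with DESeq2's size factors and 0.052 with voom. Leaving out each library gave -0.019 to 0.45 for mt-Atp8, -0.028 to 0.29 for Ndufa1, -0.093 to 0.10 for Uqcrq, -0.15 to 0.29 for Cox4i2 and -0.62 to 0.39 for Ndufa4l2.

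The depth limits the scarce isoforms, and 4 of 93 nuclear genes had too few counts for a test. With 5 against 4 libraries a missing call does not show that a gene is equal. In simulated counts most differences of 1 on the log2 scale were missed, though that rate is not the rate of the genes examined here.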
